A study of Mus musculus with 1528 samples.

Results

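*Cybb*, *Cyba*, *Ncf1*, *Ncf4* and *Rac2*, which encode parts of the phagocyte NADPH oxidase, and *Sod2*, which encodes the mitochondrial superoxide dismutase, were followed in single bone marrow–derived macrophages (BMDMs). The rows of the table of counts were found by matching the 6 gene symbols to their Ensembl identifiers, and all 6 were found among 55421 genes. BMDMs of 2 wild-type C57BL/6 mice, grown for 7 d with CSF1, received IL4 and IL13 alone (IL4+IL13) or together with TNF (IL4+IL13+TNF) for 24 h, each cytokine at 10 ng/ml. IL4 and IL13 were thus given to both groups, and a group with no cytokine or with TNF alone was not analysed here. Live cells were sorted into 4 plates, 2 per mouse, and every plate held both treatments. IL4+IL13 lay in rows A to H and IL4+IL13+TNF in rows I to P. Exceptions were 4 wells in row P labelled IL4+IL13 with no mouse, which entered no comparison. Treatment and position on the plate therefore cannot be told apart. The mouse was the replicate (n = 2 per treatment). Each mouse had its own plates, and the authors describe 2 independent experiments. Differences between the mice therefore cannot be told apart from differences between plates or experiments. Below, “without TNF” stands for the first treatment and “with TNF” for the second.

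The oxidase of phagocytes moves electrons from NADPH across a membrane onto oxygen and so makes superoxide. Its core lies in the membrane: gp91phox, the product of *Cybb*, carries the electrons, and p22phox, the product of *Cyba*, stabilises it. Cytosolic subunits, among them p47phox (*Ncf1*) and p40phox (*Ncf4*), join the core together with a small GTPase, Rac2 or Rac1, when the enzyme is switched on, so that the amount of mRNA does not give its activity. Superoxide made in mitochondria is turned into hydrogen peroxide by SOD2, and *Sod2* is a long known target of TNF and NF-κB signaling. Patients who lack a working oxidase have chronic granulomatous disease.

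The Smart-seq2 libraries covered 1524 wells of known mouse and treatment, and 1386 cells were kept, with 200235 to 6122892 fragments on genes per cell. No molecular identifiers were used, so PCR copies are counted and intervals given for shares of cells cover counting error only. Comparisons between treatments used 4 sums of counts, 1 per mouse and treatment, 162260282 to 178073130 fragments without TNF and 162464577 to 179757666 with TNF, given as CPM (counts scaled to a common library size) after edgeR's TMM scaling. Values per cell are fragments at equal depth: 339000 fragments were drawn from each of 1250 cells, and 136 cells with fewer were left out. *Csf1r*, *Adgre1*, *Cd68* and *Lyz2*, which mark macrophages, were at 687.5 CPM or higher in all 4 sums; *Lyz2*, the most abundant, went from 11463 and 12716 CPM without TNF to 24903 and 23586 CPM with it. Of all 8 macrophage markers, 6 were lower with TNF in both mice (median log2 −0.20), and edgeR with the mouse as a block called 1 higher, *Lyz2*, and 2 lower, *Fcgr1* (log2 −1.73) and *Mertk* (−1.19), with adjusted p of 0.00743, 0.00798 and 0.0317. Neutrophils, which are rich in the oxidase, were looked for by 11 markers. Their summed level was 14.3 and 43.1 CPM without TNF and 42.9 and 88.5 CPM with TNF, nearly all of it from *Csf3r*. *S100a8* read 0.919 and 1.86 CPM without TNF and 1.66 and 4.47 CPM with it, while *Ly6g*, *Ltf* and *Elane* were at 0 to 0.0237 CPM in every sum. The 3 that were tested, *Csf3r*, *S100a8* and *S100a9*, were all higher with TNF in both mice. Of these, edgeR with the mouse as a block called *Csf3r* (adjusted p = 0.0295). The 10 cycling markers summed to 1245 and 781 CPM without TNF and to 684 and 415 CPM with it, and 7 dendritic cell markers to 9.70 and 13.8 CPM against 31.2 and 209 CPM. Most of the latter difference was *Ccr7*, while *Cd209a* (1.31 and 1.42 CPM against 0.00644 and 0.274 CPM) and *Siglech* (0.71 and 1.99 CPM against 0 and 0.0228 CPM) were lower with TNF. Markers of lymphocytes, mast cells and basophils, and stromal and erythroid cells summed to 10.3 CPM or less per list. The part of these markers in the results was not tested, except for refits at the end without cells that held *Mki67*, *Csf3r* or *Ccr7*. A cell that holds such a marker need not be of another type than macrophage.

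The members lie on 5 chromosomes (positions in mm10, as in the table of counts). *Cybb* (ENSMUSG00000015340) spans chrX:9435252-9487771 on the minus strand, *Cyba* (ENSMUSG00000006519) chr8:122424776-122432930 on the minus strand, *Ncf1* (ENSMUSG00000015950) chr5:134220053-134229625 on the minus strand and *Sod2* (ENSMUSG00000006818) chr17:13006846-13040063 on the plus strand. *Ncf4* (ENSMUSG00000071715) at chr15:78244801-78262580 on the plus strand and *Rac2* (ENSMUSG00000033220) at chr15:78559167-78572783 on the minus strand share a chromosome. The union of exons was 5.808 kb for *Cybb*, 1.039 kb for *Cyba*, 3.663 kb for *Ncf1*, 2.02 kb for *Ncf4*, 3.103 kb for *Rac2* and 10.008 kb for *Sod2*. Of the exon bases of *Ncf1*, 408 also belong to *Gtf2ird2* on the opposite strand, and since strand was not used in counting, fragments from those bases cannot be told apart.

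*Cybb* and *Sod2*, the members with the highest fold changes and, with TNF, the closest correlation across cells, are shown with the 250 bases before their RefSeq start (GRCm38.p6), read 5′ to 3′ on the strand of the gene. Capitals mark letters that match a PU.1 type motif (GAGGAA), an NF-κB type motif (GGANNTTCC) or an AP-1 type motif (TGANTCA) on either strand. Shorter or variant forms of these motifs were not searched. The window of *Cybb* is chrX:9469325-9469574 and lies within the span of the longer Ensembl gene but in none of its exons. That of *Sod2* is chr17:13007589-13007838, of which 22 bases are exonic in the table of counts.
*Cybb*: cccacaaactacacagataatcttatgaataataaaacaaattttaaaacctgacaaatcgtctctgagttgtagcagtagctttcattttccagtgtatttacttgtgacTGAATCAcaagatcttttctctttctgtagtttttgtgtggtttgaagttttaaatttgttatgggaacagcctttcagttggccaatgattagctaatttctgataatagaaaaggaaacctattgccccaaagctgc
*Sod2*: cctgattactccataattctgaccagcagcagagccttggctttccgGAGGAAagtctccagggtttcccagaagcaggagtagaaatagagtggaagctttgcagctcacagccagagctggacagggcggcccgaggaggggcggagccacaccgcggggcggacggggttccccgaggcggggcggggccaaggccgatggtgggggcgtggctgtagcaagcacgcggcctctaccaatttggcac
The *Cybb* window held 1 AP-1 type match, beginning 139 bases before the start, and the *Sod2* window 1 PU.1 type match, beginning 203 bases before it. Among 32851 windows of the same length, 6.75% held the AP-1 type motif, 23.3% the PU.1 type motif and 3.59% the NF-κB type motif. The windows of *Cyba* and *Ncf1* held none of the 3 motifs. Of the members, 4 were matched to the RefSeq table, and *Ncf4* and *Rac2* were not. A match describes the letters and was not tested as a binding site.

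The question for the membrane core was whether its 2 genes moved together when TNF was added. *Cybb* stood at 250.3 CPM in mouse 1 and 531 CPM in mouse 2 without TNF. With TNF it stood at 926 and 1437 CPM. Both mice were higher with TNF and the treatments did not overlap, but mouse 2 was above mouse 1 under both treatments, 2.12-fold without TNF and 1.55-fold with TNF. *Cyba*, the most abundant member, read 1455 and 1388 CPM without TNF and 2898 and 2730 CPM with TNF, so that its mice stood close together. The fold changes were 3.02 for *Cybb* (log2 1.6 ± 0.42 SE) and 1.98 for *Cyba* (log2 0.99 ± 0.12). edgeR's quasi-likelihood test with treatment as the only term passed neither (adjusted p = 0.413 for *Cybb* and 0.172 for *Cyba*, n = 2 mice per treatment). With the mouse as a block, which the design allows because each mouse gave both treatments, edgeR passed both (adjusted p = 0.0087 and 0.00771), as did DESeq2 without the block (adjusted p = 0.00703 and 0.000781). The estimate for *Cybb* leaned on single sums: it was 1.15 without the IL4+IL13 sum of mouse 1 and 2.24 without that of mouse 2.

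The cytosolic subunits and the GTPase did not share 1 pattern. *Ncf4* measured 209.7 and 193 CPM without TNF and 392 and 309.8 CPM with TNF, again with no overlap. Its fold change of 1.74 (log2 0.80 ± 0.19 SE) passed edgeR only in the fit blocked by mouse (adjusted p = 0.0271, against 0.353 without it), and DESeq2 put it at an adjusted p of 0.0507. For *Ncf1* the values were 318 and 386 CPM without TNF and 344 and 394 CPM with it, and for *Rac2* 444 and 374 CPM without and 411 and 363 CPM with it. In both genes the treatments overlapped and the mice differed by more than the treatments did. edgeR gave log2 0.07 ± 0.18 for *Ncf1* and −0.08 ± 0.17 for *Rac2* (adjusted p = 0.974 and 0.965, with the block 0.724 and 0.679). A p that misses the threshold does not show that these genes did not change, and the sign of *Ncf1* turned to −0.03 with library size in place of TMM and that of *Rac2* to 0.06 with spike-in scaling.

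*Sod2* had the highest fold change of the members. It measured 134.5 and 130.3 CPM without TNF and 568 and 501 CPM with TNF. Mouse 2 stood at 0.969 of mouse 1 without TNF and at 0.882 with it, and every sum with TNF was above every sum without. The fold change was 4.04 (log2 2.01 ± 0.16 SE), with an adjusted p of 0.135 by edgeR without the block, 0.00576 with it and 3.56e-15 by DESeq2.

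Across all 17034 genes tested, edgeR without the block called 0.00587% higher with TNF and 0% lower, and none of the 6 members, while 1380 genes had an unadjusted p under 0.05. With the mouse as a block 1.94% were called higher and 1.88% lower; of the members 4 were called higher (*Cybb*, *Cyba*, *Ncf4* and *Sod2*) and 0 lower. DESeq2 called 1.98% of the 15382 genes to which it gave an adjusted p higher and 1.9% lower, and 3 of the members higher. Both sums with TNF were above both without for the same 4 members, and this held for 18.6% of all genes tested; it held the other way for 17.9% and for 0 members. Read within each mouse, CPM was higher with TNF in both mice for 5 members, against 34.3% of genes tested, and lower in both for 1, *Rac2*, against 32.4%. The members lay at percentiles 97.0 to 99.8 of mean CPM among the genes tested. Shares among genes of like level were not computed. The median log2 change was 0.89 over the members and 0.00 over all genes tested. With 2 mice per treatment, 0.333 is the smallest p of an exact permutation test (two-sided).

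Each plate holds both treatments, so the change can be read within a plate. *Cybb* was 3.54-fold and 3.87-fold higher with TNF on the plates of mouse 1 and 2.72-fold and 2.67-fold on those of mouse 2. For *Sod2* the plates gave 4.09-fold and 4.40-fold in mouse 1 and 3.75-fold and 3.87-fold in mouse 2. *Cyba* lay between 1.89-fold and 2.10-fold on all 4 plates, and *Ncf4* at 1.87-fold and 1.88-fold in mouse 1 and 1.64-fold and 1.54-fold in mouse 2. The plates of a mouse therefore gave similar folds, and for *Cybb*, *Ncf4* and *Sod2* the folds of mouse 2 were below those of mouse 1. *Ncf1* ran from 0.992-fold to 1.19-fold and *Rac2* from 0.919-fold to 0.958-fold, below 1 on every plate.

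**Figure D1:**
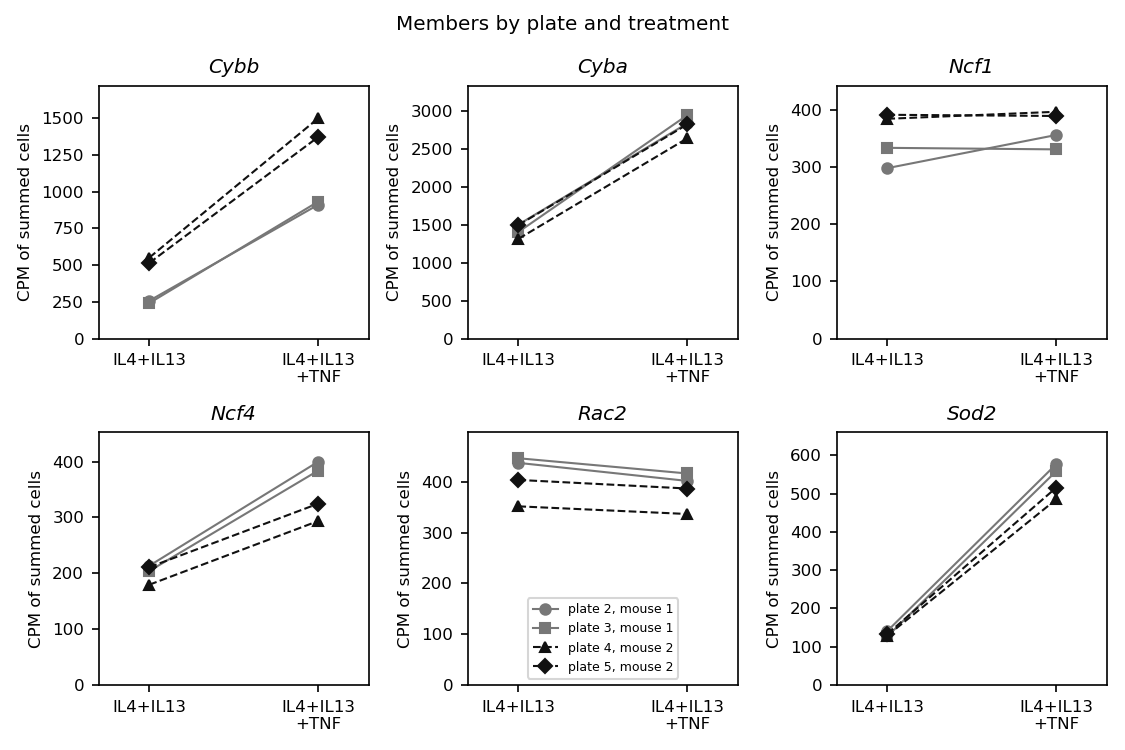
CPM of the summed cells of each plate (vertical axis, from 0) for the 6 members under IL4+IL13 and IL4+IL13+TNF; each line joins the treatments of a plate, grey for mouse 1 and black dashed for mouse 2. The lines of *Cybb*, *Cyba*, *Ncf4* and *Sod2* climb on all 4 plates, with *Cybb* higher in mouse 2, while those of *Ncf1* and *Rac2* stay nearly level.

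Because rows A to H held one treatment and rows I to P the other, the level was also read row by row at equal depth. Median *Sod2* per row ran from 23 fragments per cell (row B) to 46 (row G) without TNF and from 124 (row L) to 162 (row M) with TNF. The step fell between the neighbouring rows H and I, from 39 to 160.5 fragments. These rows are also the border between the treatments, so treatment and position cannot be told apart by them. For *Cybb* the rows ran from 78 (row B) to 97 (row G) and from 274.5 (row L) to 427 (row P), with 92 in row H and 338.5 in row I. Row medians of *Cyba* ran from 456 to 529 and from 857 to 962. With all plates together, no row of one treatment reached the rows of the other for these 3 genes; the rows of *Ncf1* (90.5 to 128.5 and 85 to 126) and *Rac2* (118 to 138 and 99 to 131) overlapped between treatments.

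**Figure D2:**
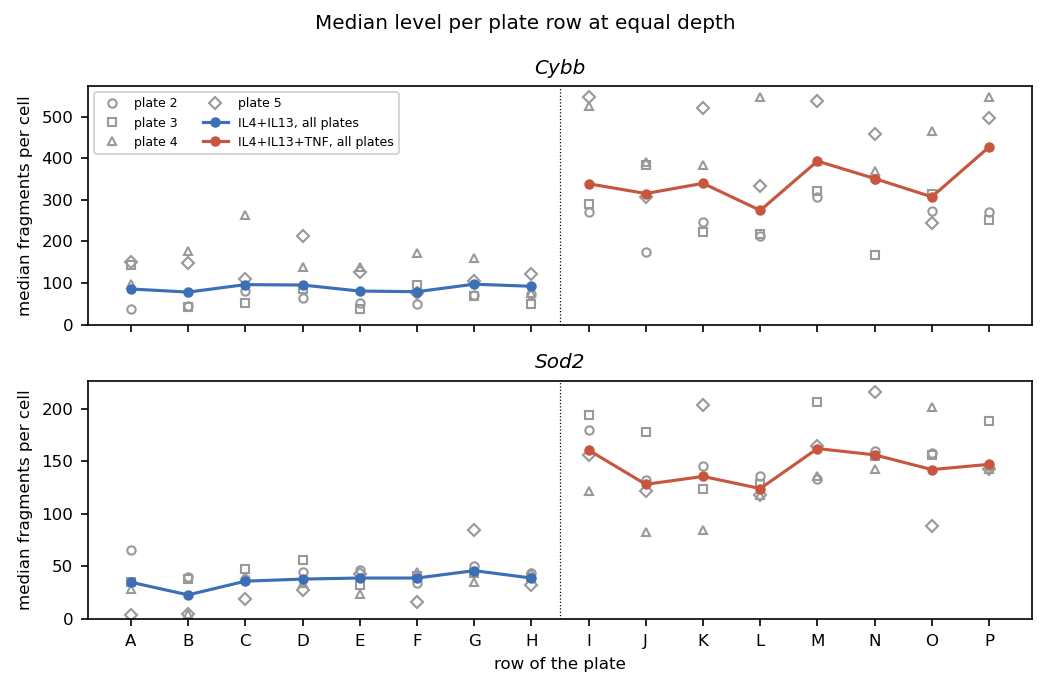
Median fragments per cell at equal depth (vertical axis) of *Cybb* and *Sod2* in each row of the plate (A to P); coloured lines give all plates together and grey symbols single plates. *Sod2* steps from 39 fragments in row H to 160.5 in row I, and *Cybb* from 92 to 338.5.

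Levels of different genes were compared per kb of exon. In CPM per kb, *Cyba* led at 1368 ± 45.5 without TNF (SD, n = 2 mice) and 2708 ± 114 with TNF, far above every other member. Without TNF the order below it was *Rac2* at 132 ± 15.9, *Ncf4* at 99.7 ± 5.74, *Ncf1* at 96.2 ± 13.1, *Cybb* at 67.3 ± 34.2 and *Sod2* at 13.2 ± 0.297; *Ncf4*, *Ncf1* and *Cybb* did not differ beyond their spread. With TNF the order was *Cybb* at 203 ± 62.3, *Ncf4* at 174 ± 28.8, *Rac2* at 125 ± 11, *Ncf1* at 101 ± 9.78 and *Sod2* at 53.4 ± 4.74, and *Cybb* and *Ncf4* did not differ beyond their spread. The level of *Cybb* per kb was 3.08% of that of *Cyba* in mouse 1 and 6.84% in mouse 2 without TNF, and 5.71% and 9.42% with TNF. The length was that of all annotated exons, whether or not these cells used them.

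The next question was whether the higher sums came from many cells or few. At equal depth *Cyba* was found in all 1250 cells, with at least 27 fragments in each. Without TNF, *Sod2* fragments were present in 94.6% of 332 cells of mouse 1 (exact binomial 95% limits after Clopper and Pearson, 91.6 and 96.8) and 90.6% of 309 cells of mouse 2 (86.8 and 93.6), and with TNF in 99.3% of 303 and 99% of 306 cells. The share of cells with at least 10 *Sod2* fragments went from 84.3% and 64.1% to 99% and 93.1%. For *Cybb* the corresponding shares were 80.4% and 87.7% without TNF and 95% and 96.4% with TNF, and for *Ncf4* 86.1% and 80.6% against 98.3% and 91.8%. These genes were thus found in most cells under both treatments.

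The higher level of *Sod2* was seen in most cells. Median *Sod2* per cell was 42.5 and 29 fragments without TNF and 159 and 133.5 with TNF in mouse 1 and mouse 2. Of the cells with TNF, 91.7% in mouse 1 and 88.6% in mouse 2 were above the median of the same mouse without TNF, and 73.9% and 56.2% were above its 90th percentile. For *Cyba* 98% and 94.1% of cells were above that median and 83.5% and 70.3% above the 90th percentile; *Cybb* gave 87.5% and 88.9%, and 63% and 52.6%. *Ncf4* gave 81.5% and 70.6% above the median, and 37.3% and 19% above the 90th percentile. *Ncf1* (46.5% and 46.1% above the median) and *Rac2* (41.9% and 52%) stayed near the middle of the cells without TNF.

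*Cybb*, *Sod2* and *Ncf4* were the least even from cell to cell without TNF. The tenth of cells with most *Cybb* held 33.1% and 31.5% of its fragments without TNF and 26.2% and 25.1% with TNF. For *Sod2* these shares were 26.1% and 36.4%, then 25.6% and 28.7%, and for *Ncf4* 29.2% and 30.1%, then 21.8% and 25.7%. *Cyba* was the most even member, with 16.4% to 18.1% in the 4 sets of mouse and treatment. All 6 members together, each with at least 10 fragments, were found in 54.5% (interval 49 to 60) and 41.1% (35.6 to 46.8) of cells without TNF and in 86.8% (82.5 to 90.4) and 80.7% (75.8 to 85) with TNF. The 6 genes took a median of 0.28% and 0.298% of the fragments of a cell without TNF and 0.523% and 0.544% with it.

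**Figure D3:**
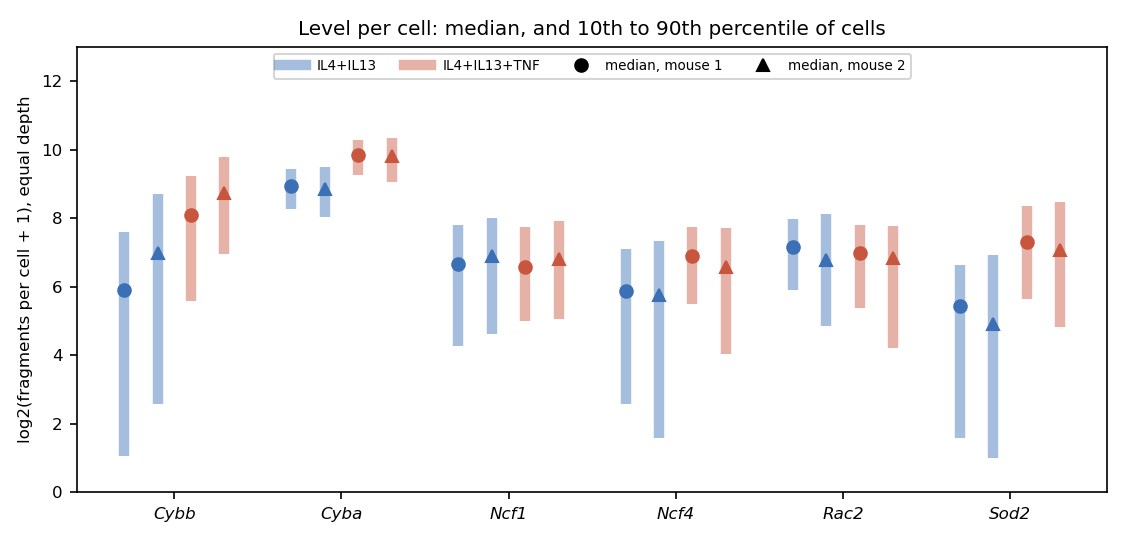
Level of the 6 members per cell at equal depth, as log2(fragments + 1) on the vertical axis; points are medians (circles mouse 1, triangles mouse 2) and bars reach from the 10th to the 90th percentile of cells, blue for IL4+IL13 and red for IL4+IL13+TNF. The bars of *Sod2* and *Cybb* lie higher with TNF and are shorter, those of *Cyba* are short and shifted, and those of *Ncf1* and *Rac2* lie side by side.

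Whether the members rise and fall together from cell to cell was described by Spearman's rho at equal depth within each of the 4 sets of mouse and treatment (303 to 332 cells each). The cells of a set share library preparation and plates, so no p is given. The median over the 15 pairs of members was 0.04, and 13 pairs had a mean rho under 0.08, too weak to be read as a finding in counts of this kind. The other pairs stood apart. *Cyba* and *Ncf4* correlated with rho = 0.30 and 0.12 without TNF and 0.19 and 0.27 with TNF, and this was the single pair with rho above 0 in all 8 sets of plate and treatment, at 0.10 to 0.30.

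*Cybb* and *Sod2* were correlated among cells with TNF. In mouse 1 and mouse 2, rho reached 0.44 and 0.47 with TNF, and 0.02 and −0.08 without TNF. By plate, mouse 1 gave 0.38 and 0.47 and mouse 2 gave 0.42 and 0.52 with TNF, and −0.08 to 0.05 on the same plates without it. The difference between treatments was not tested, since no exact permutation test over 2 mice per treatment could reach the threshold. In the third of TNF-treated cells with least *Sod2*, median *Cybb* was 184 fragments in mouse 1 and 307 in mouse 2; in the third with most *Sod2* it was 378 and 612.5. Without TNF, the cells with least *Sod2* held 58 and 144 *Cybb* fragments and those with most 64.5 and 110. From least to most *Sod2* with TNF, *Cyba* went from 868 and 844 to 947 and 960 fragments, *Ncf1* from 96 and 100 to 94 and 112, and *Ncf4* from 125 and 85.5 to 121 and 98.5. Some sums of genes also had higher rho with TNF than without. For the antioxidant genes described below, rho with *Sod2* was 0.27 and 0.38 with TNF and −0.01 and 0.02 without. With *Cybb* it was 0.27 and 0.30 against 0.03 and 0.03. *Sod2* with macrophage markers gave 0.38 and 0.35 against 0.08 and 0.11, while neutrophil markers stayed between −0.05 and 0.05. The part of these sums in the correlation of the pair was not tested.

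Since both genes were more abundant with TNF, the correlation was recomputed after both were thinned in those cells to their mean level without TNF, which gave rho = 0.41 in mouse 1 and 0.44 in mouse 2. Among cells with at least 10 fragments of both genes it was 0.42 (287 cells) and 0.41 (279 cells) with TNF and 0.12 (224 cells) and −0.06 (173 cells) without. Partial rank correlation with TNF was 0.43 and 0.47 given the number of genes detected, 0.34 and 0.38 given *Lyz2*, and 0.34 and 0.38 given *Clec4d*. Among cells with under 10 fragments of the cycling marker *Mki67* it was 0.39 and 0.48. These recomputations were chosen after the correlation was seen.

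**Figure D4:**
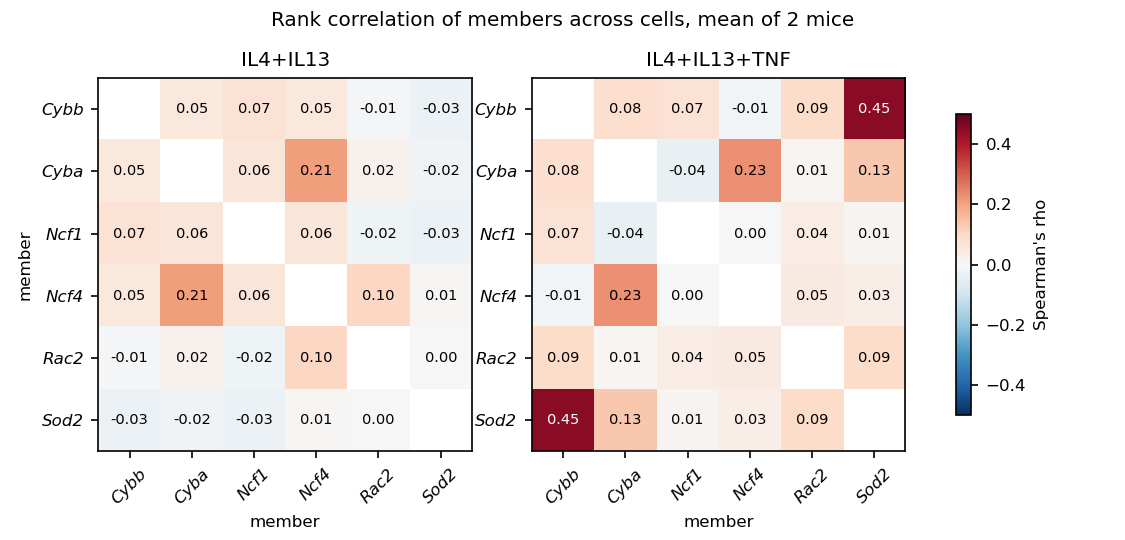
Spearman's rho of each pair of members across cells at equal depth, mean of 2 mice, for IL4+IL13 (left) and IL4+IL13+TNF (right); both axes list the members and colour gives rho from −0.5 (blue) to 0.5 (red). The pair *Cybb* and *Sod2* reads −0.03 on the left and 0.45 on the right, and *Cyba* and *Ncf4* 0.21 and 0.23.

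The genes most like each member across cells were taken from 5526 genes found in at least 50% of cells of every set, by rho averaged over the 4 sets. *Cybb* was closest to *Lyz2* (0.31), *Lyz1* (0.28) and *Mpeg1* (0.25), genes of lysozyme and of a pore-forming protein of macrophages. *Cyba* was closest to *Cd63* (0.50) and its pseudogene copy *Cd63-ps* (0.50) and to *Ctsz* (0.48), which encode a tetraspanin of lysosomes and a cathepsin. *Ncf4* was closest to *Anxa1* (0.31), *Ctss* (0.30) and *Cd300c2* (0.30), and *Rac2* to *Gm12715* (0.26), *Gm8399* (0.25) and *Pld4* (0.25). For *Sod2* these were *Clec4d* (0.25), a C-type lectin, *Lyz2* (0.23) and *Fth-ps3* (0.22). *Clec4d* reached 0.47 and 0.44 in cells with TNF, and −0.02 and 0.13 without. *Ncf1* had the lowest values, with *Lyz2* (0.15), *Ifitm6* (0.15) and *Lyz1* (0.14) at the head. Counts of *Lyz1* and *Lyz2*, and of genes and their pseudogene copies, may share fragments and are uncertain.

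Among all genes compared, with the member itself included in each count, 8 were more like *Cybb* than *Sod2* was. In the same way 12 were more like *Ncf4* than *Cyba* was. Counted likewise, 218 genes were more like *Cybb* than *Ncf1*, 260 more than *Cyba* and 1333 more than *Ncf4*. In rho with *Cybb* these members stood at percentiles 96.0, 95.3 and 75.9 of the genes compared, whose median rho was −0.01. Over the 4 sets, rho of the members with the total fragments of the cell ran from −0.09 to 0.12. With the number of genes detected it ran from −0.25 to 0.13 for *Cyba*, −0.17 to 0.08 for *Cybb* and −0.04 to 0.21 for *Sod2*, and with the mitochondrial share from −0.28 to −0.04 for *Cyba*, −0.11 to 0.03 for *Cybb* and −0.21 to 0.15 for *Sod2*. Their part in the levels was not tested. *Cyba* was lower in cells with more cycling transcripts, with rho from −0.40 to −0.12.

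Of 15 other genes of the oxidase, its activators and its relatives, 9 were abundant enough to be tested. edgeR without the block called 0 of them, and with the mouse as a block 2 higher and 0 lower; the median log2 change was 0.10. *Prkcd*, a kinase that phosphorylates p47phox, read 397 and 690.1 CPM without TNF and 918 and 1281 with TNF (log2 1.02 ± 0.32 SE, adjusted p = 0.506 by edgeR and 0.0145 with the block). *Hvcn1*, a proton channel that compensates the charge the oxidase moves, read 37 and 50 CPM, and 78.1 and 80.5 CPM (log2 0.87 ± 0.22, adjusted p = 0.383 and 0.0422). *Rac1*, which can take the place of *Rac2*, read 301 and 294 CPM without TNF and 219.99 and 246 CPM with it (log2 −0.35 ± 0.15), and edgeR passed it in neither fit (adjusted p = 0.668 without the block and 0.136 with it). The other catalytic subunits of the family (*Nox1*, *Nox3*, *Nox4*, *Duox1* and *Duox2*) stayed under 1 CPM in every sum.

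Of 22 antioxidant genes 21 were tested, and 16 were higher with TNF in both mice, against 34.3% of all genes tested; 3 were lower in both. edgeR without the block called 0, and with the block 4 higher and 0 lower. These were *Prdx5*, a peroxiredoxin (145 and 153 CPM without TNF, 343 and 448 with it, log2 1.41 ± 0.19 SE, adjusted p = 0.191 and 0.0102 with the block), *Slc7a11*, the cystine transporter (log2 1.76 ± 0.40, adjusted p = 0.347 and 0.0276), *Gclm*, a subunit of the enzyme that begins glutathione synthesis (log2 0.88 ± 0.31, adjusted p = 0.554 and 0.0314), and *Txnrd1*, thioredoxin reductase (log2 0.84 ± 0.18, adjusted p = 0.323 and 0.0321), all by edgeR. *Sod1*, which encodes the superoxide dismutase of the cytosol, read 95.3 and 125 CPM without TNF and 70.3 and 86 CPM with it. Its log2 change of −0.49 ± 0.22 did not pass edgeR (adjusted p = 0.676, with the block 0.0828), so in CPM the dismutases of the 2 compartments had changes of opposite sign in both mice, and that of *Sod2* passed edgeR with the block.

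All 7 genes that supply NADPH were tested, and edgeR called 0 in either fit. The 3 with the largest changes in the same direction in both mice were *Tkt* (log2 0.42 ± 0.15 SE), *Pgd* (0.35 ± 0.14) and *H6pd* (0.32 ± 0.22), with adjusted p of 0.0718, 0.112 and 0.387 by edgeR with the block. A list of 13 NF-κB genes, here called feedback genes although it also holds other targets such as *Icam1*, served as a comparison for *Sod2*. Of these, 12 were higher in both mice, and edgeR called 8 higher with the block and 0 without it, with a median log2 change of 1.75. *Nfkbie* (log2 3.17 ± 0.26), *Icam1* (2.45 ± 0.29), *Tnfaip3* (2.37 ± 0.33), *Traf1* (2.32 ± 0.23) and *Relb* (2.22 ± 0.32) had larger changes than *Sod2*, while *Nfkbia* (1.97 ± 0.20), *Birc3* (1.75 ± 0.35) and *Nfkb2* (1.56 ± 0.29) had smaller ones; these differences from *Sod2* were not tested. The genes of this list that passed in neither fit had log2 changes from −0.06 to 0.68. Within cells with TNF, rho of *Sod2* with the summed feedback genes was 0.26 in mouse 1 and 0.10 in mouse 2.

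**Figure D5:**
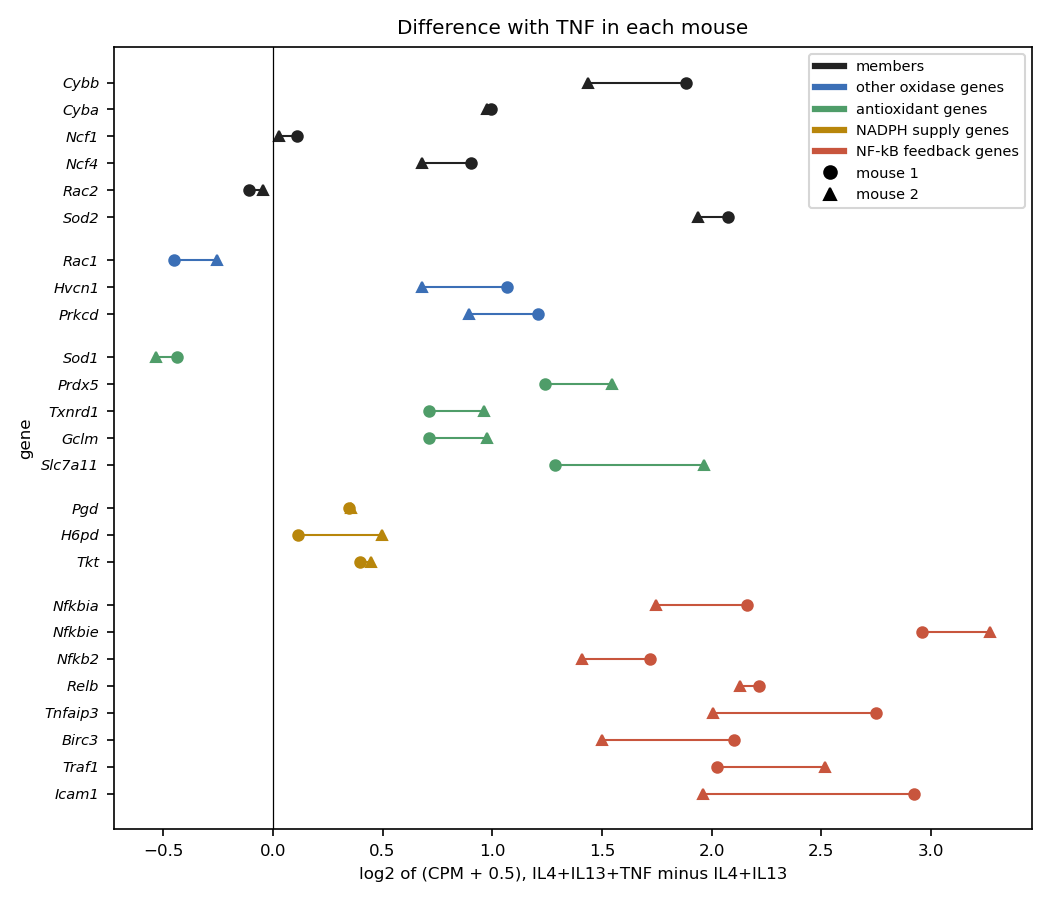
Difference in log2(CPM + 0.5) between IL4+IL13+TNF and IL4+IL13 (horizontal axis) in mouse 1 (circle) and mouse 2 (triangle) for the members and the named genes of the other lists (colours). Of the NF-κB feedback genes only those called by edgeR with the block are drawn, and *Sod2* lies among them at 2.07 and 1.94. *Ncf1* and *Rac2* lie near 0, and *Sod1* and *Rac1* lie to the left of 0 in both mice.

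Since summed markers differed between treatments, the members were refitted without cells that held 10 or more fragments of a marker. Without the 148, 85, 75 and 69 cells with *Mki67* (IL4+IL13 mouse 1 and 2, then IL4+IL13+TNF), the log2 changes were 1.5 for *Cybb*, 0.93 for *Cyba*, 0.76 for *Ncf4* and 1.79 for *Sod2*. With the block, edgeR still called *Cybb*, *Cyba* and *Sod2* (adjusted p = 0.0174, 0.018 and 0.0132), but *Ncf4* was lost (adjusted p = 0.0574). Leaving out the 61, 103, 142 and 173 cells with *Csf3r* gave 1.62, 1.00, 0.81 and 1.95, with *Ncf4* lost again (adjusted p = 0.0829 with the block). edgeR with the block had called *Csf3r* itself higher with TNF, so this refit chose cells by a gene that differed between treatments. Cells with *Mki67* or *Csf3r* were not shown to be other than macrophages. *Ccr7*, a receptor of migrating dendritic cells, was at 0.11 and 0.433 CPM without TNF and 21.4 and 195 CPM with it; without the 1 and 11 cells with TNF that held it, the log2 changes were 1.62, 1.00, 0.82 and 2.03.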

How the data were processed

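The authors deposited 1 table of counts: whole numbers of uniquely mapped fragments per gene and well, not normalized. Their methods name gsnap for the alignment to mm10 and featureCounts 1.6.3 with Ensembl 98 genes for the counting; the file header shows that strand was not used. The table's 92 spike-in rows were left out of totals and tests, 8 columns were not used because no sample label matches them, and 4 samples whose labels name no mouse entered no comparison. Gene symbols matched 55154 of 55421 identifiers.

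Low-quality wells were judged within their plate, at 3 median absolute deviations: too low a log total or log number of genes, or too high a mitochondrial or spike-in share; no doublet caller was run on the singly sorted cells. The sums of counts, 1 per mouse and treatment, were compared with edgeR 4.0.16 (glmQLFit, glmQLFTest, TMM, Benjamini-Hochberg over 17034 genes, threshold 0.05) in R 4.3.3, on genes that passed filterByExpr and were detected in 5% or more of the cells under either treatment. The standard error is the log2 change divided by the root of the F statistic, and changes per mouse are on the log2(CPM + 0.5) scale. The mouse numbers pair the samples, since each mouse gave both treatments; deviations of same-numbered sums from their treatment means correlated across genes with r = 0.56. Alternatives were the mouse as a block, DESeq2 1.42.0, other scalings (library size, DESeq2 size factors, spike-ins), limma 3.58.1 on log2(mean CPM per cell + 1), no gene filter, other cell filters, and each sum left out in turn. The fit was tested on simulated counts of 17034 genes with 200 changed. It recovered 16% of 2-fold and 62% of 4-fold changes without the block and 17% and 59% with it. Calls among the unchanged genes numbered 5 without the block and 3 with it. The simulated counts held no difference between mice, so they cannot show what the block gains in these data. Shares, thinning and correlations used Python 3.11.15 with numpy 2.4.6 and scipy 1.17.1.

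The members and the gene lists were chosen with earlier results of these data known. Named in the text are the 6 members, the 3 genes most like each, every gene of 4 lists (other oxidase, antioxidant, NADPH supply and NF-κB feedback genes) that passed in edgeR with or without the block, the 3 largest changes of each list that had the same sign in both mice, and *Rac1* and *Sod1*; 1 further gene of that rule and of the oxidase list is not reported here.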

Additional observations from a re-analysis of the deposited data

Results flagged for a closer look

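The labels of 4 wells give the treatment, IL4+IL13, without a mouse, and 3 of these wells had counts, with 87198 to 354874 fragments and 8314 to 11121 genes. The 4 wells entered no comparison. The names of the 3 with counts place them in row P, among the rows of IL4+IL13+TNF. A signal in data outside the comparisons drew attention to them: *Cybb* stood at 1239, 1510 and 2136 CPM, and 2 wells were above 1294 CPM, the 95th percentile of the 690 kept cells with IL4+IL13. For the other members no well was above the 95th percentile of the same cells. Kept cells had medians of 7308 to 8173 genes by plate and treatment. The labels do not say whether these wells held single cells, and the percentile is one of single cells. Their spike-in share was 0 to 0.0101%, against medians of 0.0380% to 0.0678% on the plates. No plate stood far from the others in any of the 18 sets of 4 plate values checked for the members, which were CPM under each treatment and the log2 difference between treatments.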

How the results depend on the processing

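edgeR without the mouse as a block called 1 gene of 17034; with the replicate block 651 were called (331 higher and 320 lower with TNF), and DESeq2 called 598 (305 and 293). Spike-in scaling gave 12 calls, all higher, and moved the median log2 change of all genes to 0.15, so that relative to it *Cybb* stood at 1.66, *Cyba* 0.98, *Ncf1* 0.08, *Ncf4* 0.81, *Rac2* −0.09 and *Sod2* 2.02. Other scalings, gene and cell filters and limma gave 1 call each. With the block the log2 changes were 1.66 for *Cybb*, 0.98 for *Cyba*, 0.79 for *Ncf4* and 2.01 for *Sod2*, and with DESeq2 1.59 for *Cybb*, 0.98 for *Cyba* and 2.00 for *Sod2*; each of these passed where edgeR without the block did not. The block changed no call for *Ncf1* and *Rac2*.

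Alternatives chosen after seeing the data left out cells with a marker, with the block: without *Ccr7* cells 699 genes were called, with *Cybb* at 1.68, *Cyba* 1.00, *Ncf4* 0.81 and *Sod2* 2.03; without *Mki67* cells 322, with 1.55, 0.93 and 1.79 for *Cybb*, *Cyba* and *Sod2*; without *Csf3r* cells 178, with 1.67, 1.00 and 1.95. Without the block leaving out *Mki67* or *Csf3r* cells gave 2 calls each. The sign of *Ncf1* turned with library size (−0.0263), limma (−0.0346) and without *Mki67* cells (−0.0369, and −0.0328 with the block), and that of *Rac2* with spike-in scaling (0.0591); the cause was not tested.

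With each sum left out in turn, *Cybb* ran from 1.15 to 2.24, *Cyba* from 0.94 to 1.03, *Ncf1* from −0.0722 to 0.215, *Ncf4* from 0.62 to 0.96, *Rac2* from −0.196 to 0.0425 and *Sod2* from 1.92 to 2.10, with no member called, and 4 to 30 genes were called, 30 of them without the IL4+IL13+TNF sum of mouse 1. *Ncf1* turned to −0.0722 and −0.0361, and *Rac2* to 0.0425 and 0.00684, without the IL4+IL13 sum of mouse 1 and the IL4+IL13+TNF sum of mouse 2. The lone sum of a treatment was then assumed to vary like the other treatment. Shares of cells depended on depth and minimum: the *Sod2* difference was 6.58 percentage points, 3.09 with no thinning, 9.56 at 200000 fragments and 21.9 at 10 or more fragments.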
